A study of Mus musculus with 46 samples.

Results

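The fragment examined here, P013, holds the promoter of Fam32a on mouse chromosome 8 and is 1 of 23 promoter fragments cloned from the Klf2 locus. It was taken by its fragment name, as every Upstream construct of the Klf2 locus with P013 in its first or second position and every Downstream construct built on the P013 vector. That gave 205 of 19789 Klf2 Upstream constructs and 229 of the 2364 Downstream constructs. The 2 assays are massively parallel reporter assays in E14TG2a mouse embryonic stem cells, an established line grown in 2i+LIF medium, in which each plasmid carries a barcode and the abundance of that barcode in RNA reports transcription. In the Upstream assay 2 fragments were joined in either order and either orientation, and in the Downstream assay an insert was placed with 1 of 10 promoter vectors. The labels name no change to the cells other than transient transfection with a library mix, and RNA was taken 24 h later in 3 independent biological replicates of each mix.

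FAM32A is a small nuclear protein of the spliceosome, where it acts at the exon ligation step, and its gene is widely expressed. A promoter holds the start site where RNA polymerase II begins transcription, and its output can be raised or lowered by nearby sequences. Candidate cis-regulatory elements, or cCREs, are fragments chosen as possible enhancers, and each is called here by the study's E number, with + or − for the listed strand. In a plasmid assay the fragments are taken out of their chromosome, so what is read is the activity of the joined sequences outside that setting.

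P013 spans chromosome 8, 72219354 to 72219804, in mm10, and begins 391 bp before the RefSeq start site of Fam32a at 72219745 and ends 59 bp after it. Fam32a lies on the + strand, from 72219745 to 72225034, 6659 bp from the end of Cib3 and 14979 bp before the start of Ap1m1. The listed strand of P013 can therefore be set against the gene's strand, but how the listed strand lies relative to the reporter is not given in the sources used here. The 250 bases before the start site, from RefSeq on GRCm38.p6 (chr8:72219495-72219744, + strand), lie wholly inside P013 and are shown because they hold the core of the promoter that all the constructs share. Capitals mark matches to 2 short motifs, CCGGAAGT, bound by ETS factors, and CCAAT, bound by NF-Y, on either strand.
Fam32a promoter: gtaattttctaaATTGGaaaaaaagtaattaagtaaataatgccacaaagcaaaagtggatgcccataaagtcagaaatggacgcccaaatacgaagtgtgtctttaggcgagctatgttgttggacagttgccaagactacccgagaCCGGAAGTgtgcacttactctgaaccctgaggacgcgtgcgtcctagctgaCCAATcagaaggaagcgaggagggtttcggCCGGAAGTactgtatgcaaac
CCGGAAGT was found 2 times, at positions −102 to −95 and −21 to −14 relative to the start site, and CCAAT 2 times, at −51 to −47 and, on the opposite strand, at −238 to −234. Among 32851 RefSeq promoter windows of 300 bases, 3.89% held CCGGAAGT and 0.356% held it at least 2 times. CCAAT was held by 37.4%, and at least 2 times by 11.7%. The Fam32a window held no TATAAA, which 13.6% of windows held, and no GGGCGG, which 35.7% held. Its GC content was 49.3%, against a median of 52.7%, and it held 16 CG dinucleotides, against a median of 7. Among the locus's promoters matched to a RefSeq window, that of Cherp (P019) also held CCGGAAGT, 1 time. The windows of P003, P004, P009 and P022 also held CCAAT 2 times. The motifs were chosen after the sequence had been read. These matches are letters in a window and not measured binding.

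Activity is the authors' ratio of cDNA to plasmid barcodes for a construct in 1 transfection, and the number of barcodes behind a value was not used here, so its counting depth is unknown. Across the P013 constructs the log2 activities of replicate pairs correlated between 0.920 and 0.933 in the Upstream assay and between 0.961 and 0.981 in the Downstream assay. The median standard deviation over the 3 replicates was 0.34 log2 Upstream and 0.19 log2 Downstream. No P013 construct was at 0 in any replicate. The adjusted p-values below are Benjamini-Hochberg values from limma over every construct of a class in the locus, with n = 3 transfections a construct. Counts of P013 constructs with replicates paired, with a replicate left out or at an unadjusted p are given without the like share over the class.

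Alone in the Upstream assay, P013 was strongly active in 1 orientation and weakly active in the other. In the + orientation, which is the strand of the Fam32a gene, its activity was 3.56, 3.92 and 2.63 in the 3 replicates. In the − orientation it was 0.380, 0.314 and 0.460. All 3 values of the + orientation lay above all 3 of the − orientation, by 8.74-fold (log2 difference 3.13 ± 0.23 SE, adjusted p = 2.02e-04 by limma; with replicates paired, adjusted p = 0.00453). A single empty construct in the same mix read 0.118, 0.0675 and 0.238, so P013 stood 11.0- to 58.1-fold above it in the + orientation and 1.93- to 4.66-fold above it in the − orientation. Of 23 promoter fragments measured in both orientations, 8 differed between them, 7 with + higher and 1, P019 of Cherp, with − higher. Cherp lies on the − strand, so the higher orientation of P019 was also that of its gene. With replicates paired 15 differed, 12 with + higher and 3 with − higher. P013's difference was the largest estimate of the 23, followed by P017 with 2.68 ± 0.14 and P016 of Klf2 with 2.53 ± 0.38 log2. P017 holds the starts of Eps15l1, on the − strand, and of Gm46043, on the + strand. The differences between fragments were not tested.

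**Figure D1:**
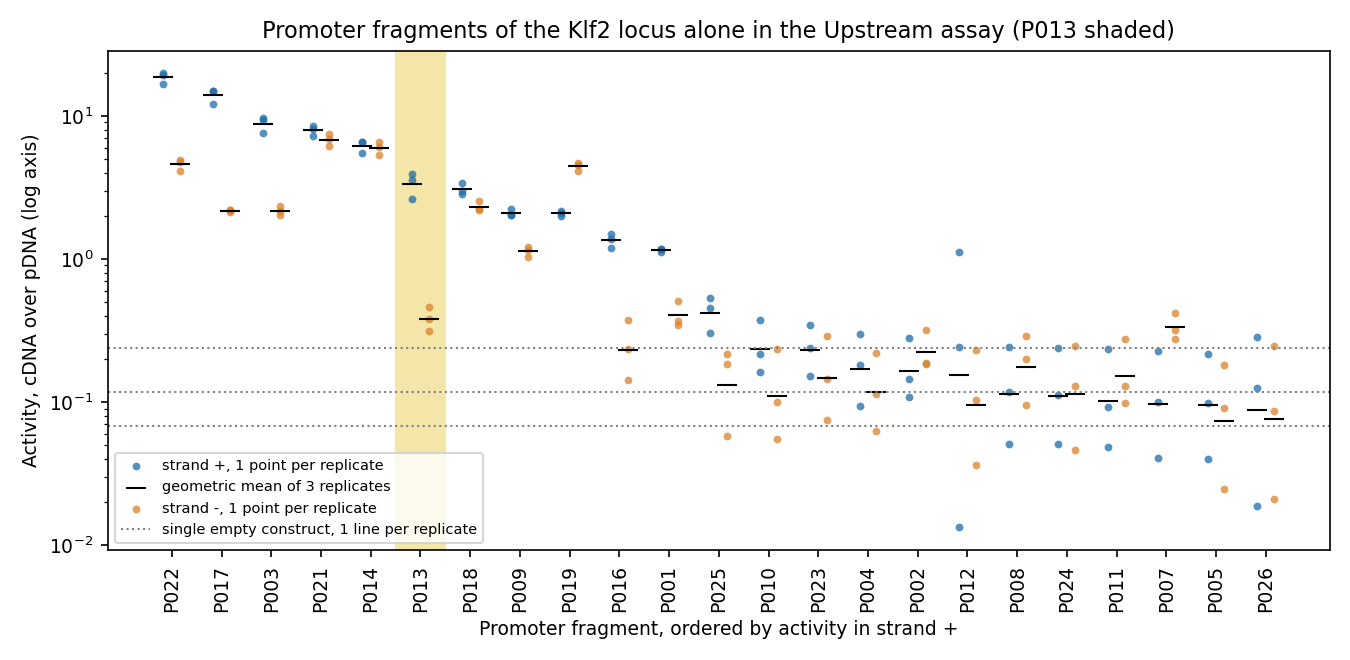
Activity (cDNA over plasmid barcodes, log axis) of 23 promoter fragments alone in the Upstream assay, with 1 point per replicate for each listed strand, black bars for geometric means and dotted lines for the single empty construct in each replicate. P013, shaded, has its + values from 2.63 to 3.92 and its − values from 0.314 to 0.460, near but above the empty construct.

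In the order of + orientation levels P013 stood 6th of 23. This order is by listed strand, and + is not the gene's strand for every fragment. P021 and P014 stood just above P013. P021 is that of Med26, a Mediator subunit, on the − strand. P014 is that of Ap1m1, which encodes an adaptor subunit of vesicle coats. P014 read 6.53, 6.51 and 5.51, above every P013 value (P013 minus P014 −0.89 ± 0.25 SE log2, adjusted p = 0.0174). P018 holds the starts of Calr3, on the − strand, and of 1700030K09Rik, on the + strand. It read 3.37, 2.99 and 2.86, inside the range of P013 (0.12 ± 0.25, adjusted p = 0.675), so P018 and P013 did not differ beyond their spread. P009 of Rab8a, a small GTPase of membrane traffic, came next with 2.24, 2.03 and 2.02 (0.66 ± 0.25, adjusted p = 0.0385, and 0.0550 with replicates paired). P013 was higher than 16 of the 22 other fragments in that orientation, lower than 5 and not distinguished from P018. In the − orientation P013 stood 10th of 23, above 10 and below 8 of the others. It was not distinguished there from P001 of Zfp882, which read 0.368, 0.348 and 0.510, from P007 of Olfr374 with 0.320, 0.276 and 0.416, from P016 of Klf2 or from P002, which passed with replicates paired (0.77 ± 0.31, adjusted p = 0.0360). In the comparison with the other fragments, 39 of 44 contrasts passed, and without replicate 1 there were 25. The 22 contrasts of each orientation share the P013 values and are not independent.

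A cCRE placed before P013 changed its output in 19 of 120 constructs, or 15.8%, 12 higher and 7 lower than P013 alone. In the whole table of cCREs before the locus's promoters, 592 of 3685 constructs passed, 16.1%, a like share in all. The directions were split otherwise, with 10.0% higher and 5.83% lower on P013 against 4.10% higher and 12.0% lower in that table, and this difference was not tested. Of the 29 constructs with P013+, 1 was higher and 2 were lower, and of the 91 with P013−, 11 were higher and 5 lower, so the increases were nearly all on the weak orientation. The median log2 difference from P013 alone was −0.20 over the 120 constructs, and −0.28 over all 3685. With replicates paired, 17 constructs rose and 17 fell. Leaving out replicate 1, 2 or 3 left 0 calls each, with 15, 30 and 52 constructs at an unadjusted p under 0.05 in limma. Pairs and single fragments were built as separate plasmid libraries and transfected together, so library and construct kind cannot be told apart.

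The highest output came from E007, which lies in Zfp617 (71922525 to 71922975) and holds that gene's RefSeq start site. E007+ before P013− read 2.03, 2.20 and 1.83, all above the 0.314 to 0.460 of P013− alone (log2 difference 2.41 ± 0.18 SE, adjusted p = 0.00654). E007+ before P013+ read 11.5, 11.7 and 7.02, all above P013+ alone (1.56 ± 0.28, adjusted p = 0.0243). E007+ alone already read 9.07, 9.31 and 7.57, so the construct with P013+ was near the cCRE's own level and the one with P013− was 4.27-fold below it. E008, which overlaps E007 by 69 bp and so shares sequence with it, was itself weak, with 0.185, 0.138 and 0.328 alone. E008+ before P013− nevertheless read 1.15, 1.11 and 1.25, above both of its parts in every replicate (1.62 ± 0.18 over P013− alone, adjusted p = 0.00827). E105+, inside Sin3b, read 0.352, 0.320 and 0.553 alone and 1.27, 1.38 and 1.52 before P013− (1.87 ± 0.18, adjusted p = 0.00738). E097−, inside Nwd1, read 1.23, 1.03 and 1.09 before P013− (1.55 ± 0.18, adjusted p = 0.00998), close to its own 1.31, 0.906 and 0.993 alone.

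The strongest decrease on the active orientation came from E030+ (72125819 to 72126269), which holds the RefSeq start site of Gm39196. E030+ before P013+ read 0.670, 1.07 and 0.725, below all values of P013+ alone by 4.13-fold (log2 difference −2.04 ± 0.26, adjusted p = 0.0119). E112+ before P013+ read 1.49, 1.50 and 1.34 (−1.21 ± 0.19, adjusted p = 0.0182). The other decreases named by the rule were on P013−. E104− before P013− read 0.0553, 0.102 and 0.136, E098− 0.173, 0.110 and 0.143, and E004+ 0.155, 0.114 and 0.217, with log2 differences of −2.06, −1.45 and −1.28. These values overlap the 0.0675 to 0.238 of the single empty construct.

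For 29 oriented cCREs both orientations of P013 were measured behind the same cCRE. All 29 gave higher activity with P013+ than with P013−. Relative to P013 alone the 2 orientations shared the sign of the difference in 20 of 29, with a Pearson r of 0.73 and a Spearman rho of 0.63 over these cCREs, which share the transfections. The spread of the differences was 0.62 log2 (SD) on P013+ and 0.90 on P013−. E097− was the widest apart, at −0.27 on P013+ and 1.55 on P013−, and this contrast was not tested.

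**Figure D2:**
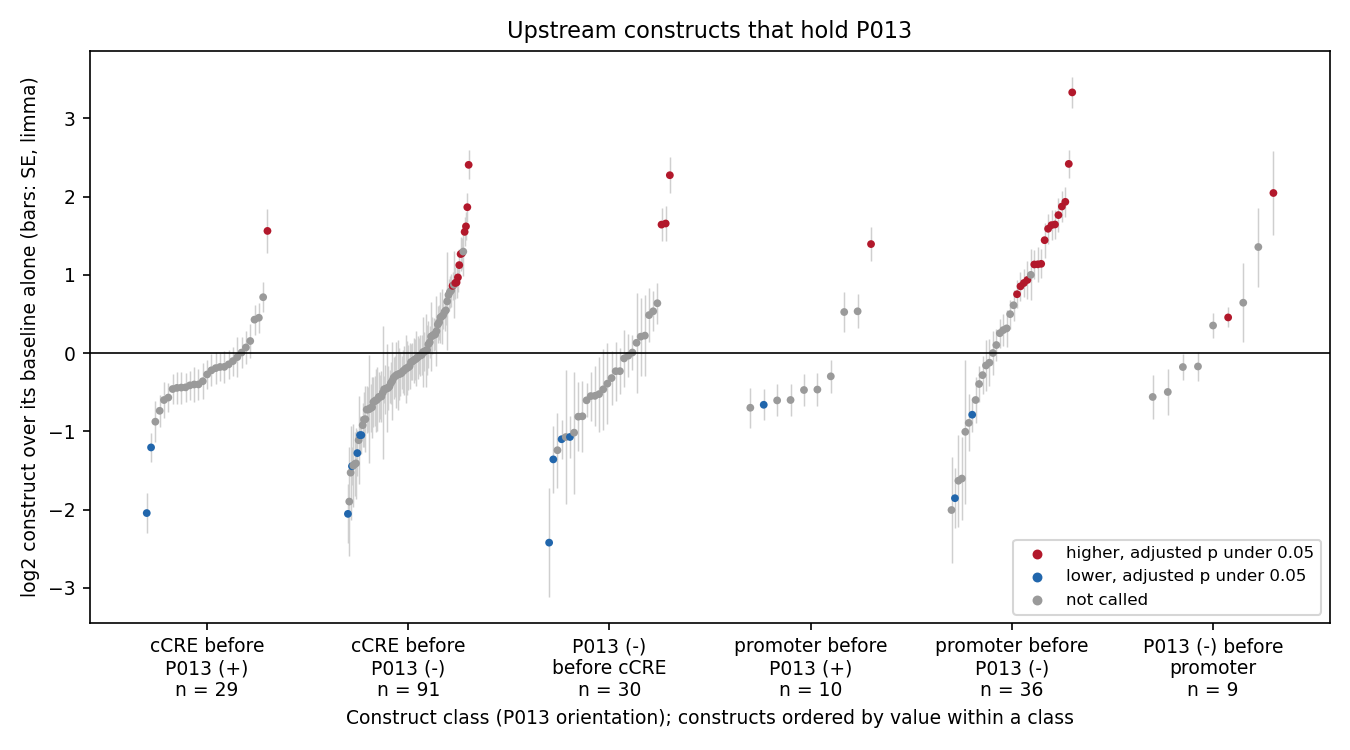
Log2 ratio of each Upstream P013 construct to its baseline (P013 alone, or the second promoter alone where P013 comes before another promoter), ordered by value within a class, with limma standard errors as bars. Constructs past the adjusted threshold are red (higher) or blue (lower), and promoters before P013− reach the highest value, 3.33.

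With P013 placed first, only its − orientation was represented. Of 30 constructs of P013− before a cCRE, 7 passed, 23.3%, 3 higher and 4 lower than P013− alone, against 52.6% of 3987 constructs in the class (3.79% higher and 48.8% lower). The median was −0.35 log2, against −1.18 over the class, and P013− alone stood close to the empty construct. The 3 that rose held E006 or E007. E006, between genes near Zfp882 (71900631 to 71901081), gave 2.06, 1.95 and 1.54 in + (2.27 ± 0.23, adjusted p = 4.49e-04) and 1.39, 1.12 and 1.10 in − (1.66 ± 0.22, adjusted p = 0.00129). E007− gave 1.10, 1.30 and 1.17 (1.64 ± 0.21, adjusted p = 0.00111). Alone, E006+ read 0.445, 0.347 and 0.577, and E007+ 9.07, 9.31 and 7.57. The levels of E006− and E007− alone are not given here. The cCRE's own output was not separated from that of P013− in these constructs. E092−, E098−, E095+ and E077− were below P013− alone by 2.42, 1.36, 1.10 and 1.07 log2. P013− before E092− read 0.0588, 0.0311 and 0.194, under the empty construct in every replicate, and P013− alone was only 3.07-fold above that construct, so this decrease goes past the floor of the assay and its size cannot be read. With E098−, E095+ and E077− behind P013−, the constructs read 0.0854 to 0.242, 0.140 to 0.213 and 0.144 to 0.236. These values overlap the 0.0675 to 0.238 of the single empty construct, so the floor also limits the size of these decreases. The calls numbered 3 without replicate 1 and 4 without replicate 2.

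Both orders were available for 22 oriented cCREs with P013−. The 2 orders differed in 6, or 27.3%, against 49.8% of 2575 pairs in the locus, and the median difference was 0.31 log2 in favour of the cCRE first, against 1.03 over all pairs. E077−, in Slc35e1, was higher when placed first (1.56 ± 0.24 log2, adjusted p = 0.00280), as were E008+ (1.09 ± 0.23), E061− (0.93 ± 0.26) and E095+ (0.85 ± 0.25). Placed second, E077− read 0.144, 0.174 and 0.236 and E095+ 0.213, 0.140 and 0.186. These values lie within the 0.0675 to 0.238 of the single empty construct, so the floor of the assay limits the size of both differences. E006+ read 0.686, 0.664 and 0.721 placed first and 2.06, 1.95 and 1.54 placed second (−1.41 ± 0.19, adjusted p = 0.00178). E005−, which overlaps E006 by 96 bp, was also higher placed second (−1.49 ± 0.37, adjusted p = 0.0193). Placed first it read 0.148, 0.190 and 0.334, which overlaps the range of the empty construct. Without replicate 1 limma made 0 calls, with 3 pairs at an unadjusted p under 0.05, and without replicate 2 it made 2.

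Another promoter placed before P013 changed the output in 20 of 46 constructs, 43.5%, 17 higher and 3 lower, against 41.2% of 1317 promoter pairs in the locus, 29.9% higher and 11.2% lower. With replicates paired, 21 rose and 10 fell. P022+, which holds the starts of Smim7 and Tmem38a and was the strongest fragment alone, gave 4.02, 4.22 and 3.31 before P013−, 10.1-fold above P013− alone (3.33 ± 0.20, adjusted p = 7.06e-04). P019− of Cherp, a gene of calcium homeostasis and splicing, gave 2.00, 2.18 and 1.92 (2.42 ± 0.18, adjusted p = 8.62e-04). P014− of Ap1m1, P021− of Med26 and P023+ of Tmem38a followed at 1.93, 1.87 and 1.76 log2 above P013− alone. On P013+ 1 construct rose, P018+ before it, with 9.89, 9.26 and 7.28 (1.39 ± 0.22, adjusted p = 0.00584), 2.85-fold above P018+ alone. P012−, which lies 5.8 kb from P013 towards Cib3, lowered both orientations. The decrease was 1.85 log2 on P013− (adjusted p = 0.0132) and 0.66 on P013+ (adjusted p = 0.0474). Of the 10 promoter constructs with P013+ second, 7 lay below P013+ alone. Their median over all 10 was −0.469 log2 and the lowest, with P001− first, was −0.698. The decrease on P013+ is therefore not read as particular to P012−. P012− before P013− read 0.0827, 0.0776 and 0.181, within the range of the empty construct, so the size of that decrease is limited by the floor of the assay. P023− lowered P013− by 0.79 (adjusted p = 0.0370, and 0.0691 with replicates paired). The geometric mean of that construct was 0.220, against 0.124 for the single empty construct and 0.380 for P013− alone, so this decrease also lies near the floor.

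Over the 36 constructs with P013− second, the log2 activity of the construct and of the first promoter alone had a Pearson r of 0.80 and a Spearman rho of 0.81, a description over constructs that share P013 and, for both orientations, the partner. In 19 of the 36 the partner alone was stronger than P013− alone. All 19 constructs lay above P013− alone, and 18 of these lay below the partner alone, so they fell between the levels of their parts. P022+, for example, lost 4.84-fold relative to its own level with P013− behind it. Without replicate 1 limma made 0 calls in this class, with 13 constructs at an unadjusted p under 0.05, and without replicate 2 it made 10.

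P013− before another promoter was compared with that second promoter alone, in 9 constructs from the same fit. P010− of Hsh2d read 0.455, 0.399 and 0.509 with P013− before it (2.05 ± 0.54 log2 over P010− alone, adjusted p = 0.0312). P010− alone read between 0.0551 and 0.236, at the level of the empty construct, and the pair was near the 0.314 to 0.460 of P013− alone. P009+ of Rab8a read 2.81, 2.76 and 3.07 (0.46 ± 0.13, adjusted p = 0.0374). The other 7 did not pass, and with replicates paired 3 rose and 1 fell. Without replicate 1 limma made 0 calls, with 0 at an unadjusted p under 0.05, and without replicate 2 it made 0, with 2.

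In the Downstream assay the P013 vector stood 5th of 10 promoter vectors. Over the 8 control inserts shared by all vectors its mean activity was 0.993, 0.901 and 0.782 in the 3 replicates, against 0.0765, 0.134 and 0.106 for the vector without a promoter. It was lower than the P022, P017 and P021 vectors, by 1.49, 0.96 and 0.68 log2, and higher than those of P001, P019 and P009, by 2.28, 1.49 and 0.42 log2 (each SE 0.15, adjusted p of 0.0111 or less in limma). The difference from P009 did not hold on other measures, at 0.20 log2 (adjusted p = 0.226) by the median cCRE insert and −0.07 (adjusted p = 0.656) between the vectors with no insert. P014, the next above it, and P016 and P018, the next below it, did not differ from it beyond their spread (adjusted p of 0.0962, 0.479 and 0.479). These 9 contrasts share the P013 values, and the fit gave all of them 1 standard error. Each promoter vector had plasmid libraries of its own, so promoter and library cannot be told apart in them. The vector alone, with no insert, read 1.27, 1.14 and 0.980, which is 0.41 ± 0.02 log2 (SD, n = 3) above the mean over its 40 control inserts. With no insert P013 stood 7th of 10, as the P009 vector read 1.25, 1.24 and 1.07 and the P018 vector 1.22, 1.29 and 1.40, neither distinguished from P013.

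cCREs inserted with the P013 vector changed its output in 79 of 146 constructs, 54.1%, 58 higher and 21 lower than the mean of the control inserts. Over all vectors 713 of 1364 passed, 52.3%, 37.0% higher and 15.3% lower. The median was 0.23 log2, against 0.18 over all vectors, and with replicates paired 90 rose and 31 fell. Shuffled and random control inserts themselves ranged from −1.06 to 1.25 log2 around their mean, and the test against that mean does not include this spread. Only 4 of the 146 cCRE constructs lay above the range of the 40 controls and 2 below it. Measured against the vector alone, 13 cCRE constructs were higher and 47 lower, and the like share over all vectors is not given here. Each other promoter vector also read higher with no insert than over its controls, for example P022 with 4.14 against 2.70. These counts are therefore not read as particular to P013. Control and genomic inserts came from separate plasmid libraries of this vector, so insert kind and library cannot be told apart.

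The highest insert was E029+, between genes near Gm39196 (72115240 to 72115690), with 2.70, 2.18 and 2.31 (1.50 ± 0.13 log2 above the controls, adjusted p = 1.30e-05). E008− with 2.60, 2.22 and 2.21 (1.47 ± 0.13), E007− with 2.69, 2.11 and 2.14 (1.44 ± 0.14) and E006− with 2.38, 1.98 and 1.93 (1.31 ± 0.13) were the other 3 above every control. E006+ reached 1.11 ± 0.13. The lowest were both orientations of E030, with 0.414, 0.325 and 0.269 in + (−1.35 ± 0.16, adjusted p = 7.46e-05) and 0.469, 0.381 and 0.278 in − (−1.20 ± 0.18), below every control. E105+ at −0.88, E038+ at −0.86 and E081− at −0.82 followed and lay inside the range of the controls. Shuffled versions of E030 and E006 were among the controls and ranged from −0.35 to 1.25 and from −0.89 to 0.66 log2, over 6 constructs each, so these 2 native fragments did not overlap their own shuffled versions, and neither did E095 (0.23 to 0.28, against −0.82 to 0.09). The other 2 fragments with shuffled versions lay inside them, E046 (0.68 to 0.99) between −0.45 and 1.06 and E027 (0.20 to 0.22) between −1.06 and 0.70.

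**Figure D3:**
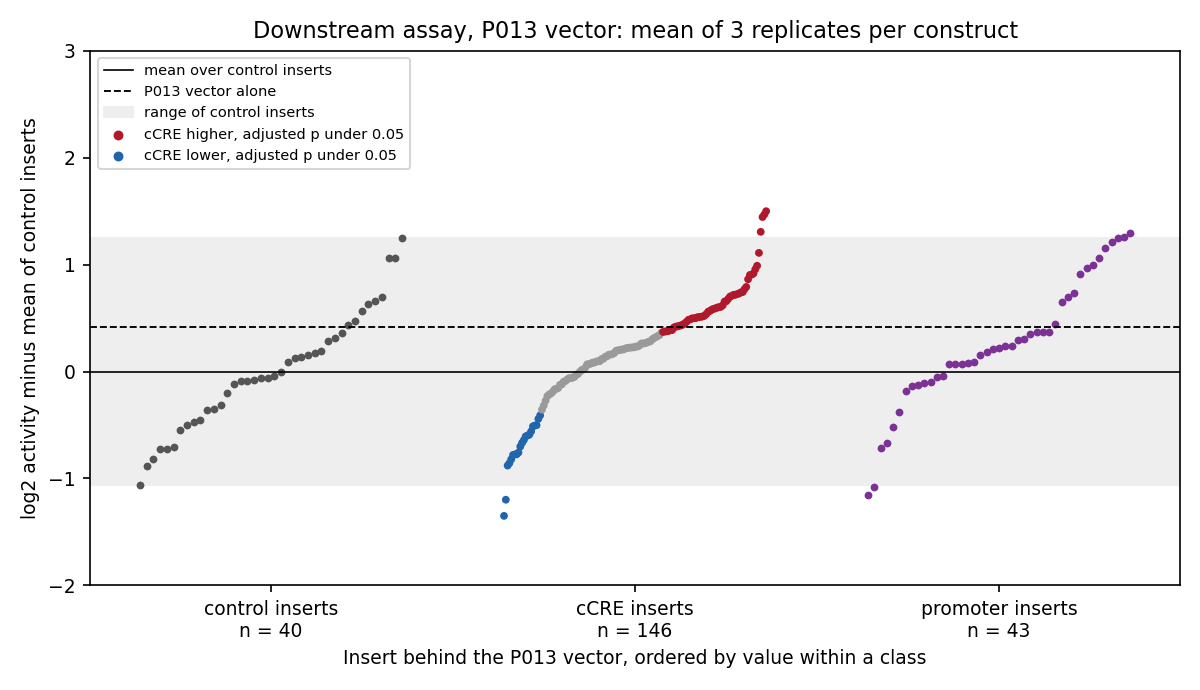
Log2 activity of each construct on the P013 vector minus the mean of the control inserts, 1 point per construct (mean of 3 replicates), for 40 control, 146 cCRE and 43 promoter inserts. The grey band is the range of the controls, −1.06 to 1.25, and 4 cCRE constructs lie above it and 2 below.

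Promoter fragments inserted with the P013 vector, 43 constructs of 23 fragments, ranged from −1.15 to 1.29 log2 around the controls, a description with no test. P018− (1.29), P012+ (1.26) and P016+ of Klf2 (1.25) lay above the range of the controls, and P008− (−1.15) and P004− of Cyp4f18 (−1.08) below it. P013 inserted with its own vector, in the − orientation, read 0.970, 0.792 and 0.720, −0.04 log2 from the control mean. As an insert with each of the other 10 vectors, the one without a promoter included, P013− stayed inside the range of that vector's controls, from −0.60 log2 with P014 to 0.54 with P018.

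Of 67 cCREs inserted in both orientations, 20 differed between them on the P013 vector, 29.9%, 10 with + higher and 10 with − higher, against 41.3% of 612 over all vectors. With replicates paired 51 differed on P013, and the paired share over all vectors is not given here. Whether the lower share of P013 holds with pairing was not tested. Over the 67 the 2 orientations shared their sign relative to the controls in 49, with a Pearson r of 0.56. E105 gave 0.535, 0.443 and 0.407 in + and 1.47, 1.18 and 1.18 in −, without overlap (−1.47 ± 0.14 log2, adjusted p = 4.17e-05). E005, E076, E074 and E007 were also higher in −, by 1.03, 0.75, 0.74 and 0.70 log2. E017, E081, E034, E110 and E083 were higher in +, by 1.04, 0.98, 0.94, 0.89 and 0.87.

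cCREs ranked on the P013 vector much as they did on the other vectors. The boost index, the log2 activity of a construct relative to the median cCRE construct of the same vector, had a Pearson r of 0.92 between P013 and the mean of the other vectors over 143 oriented cCREs. The median absolute deviation from that mean was 0.11 log2, against 0.14 over all vectors, and P013 stood 8th of 10 in its size. Of these deviations 86 of 143 passed, 60.1%, 28 higher and 58 lower on P013, against 68.8% of 1341 over all vectors. The test, SE and SD here are over 3 replicates, with the other vectors averaged within each replicate. The spread among those vectors does not enter them, so a pass does not place P013 outside their range. E029+ departed most upwards, with boost indices of 1.22, 1.20 and 1.33 on P013 against a mean of 0.52 ± 0.02 (SD, n = 3) on 6 others (0.73 ± 0.03 SE, adjusted p = 3.28e-04). E004+ (0.44), E107+ (0.40), E055+ (0.36) and E006− (0.30) followed. E087− departed most downwards, with 0.45, 0.21 and 0.28 on P013 against 1.10 ± 0.06 on 7 others (−0.79 ± 0.04, adjusted p = 4.85e-04). E065+ (−0.77, with 4 others), E030+ (−0.67), E001+ (−0.57) and E105+ (−0.47) followed.

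**Figure D4:**
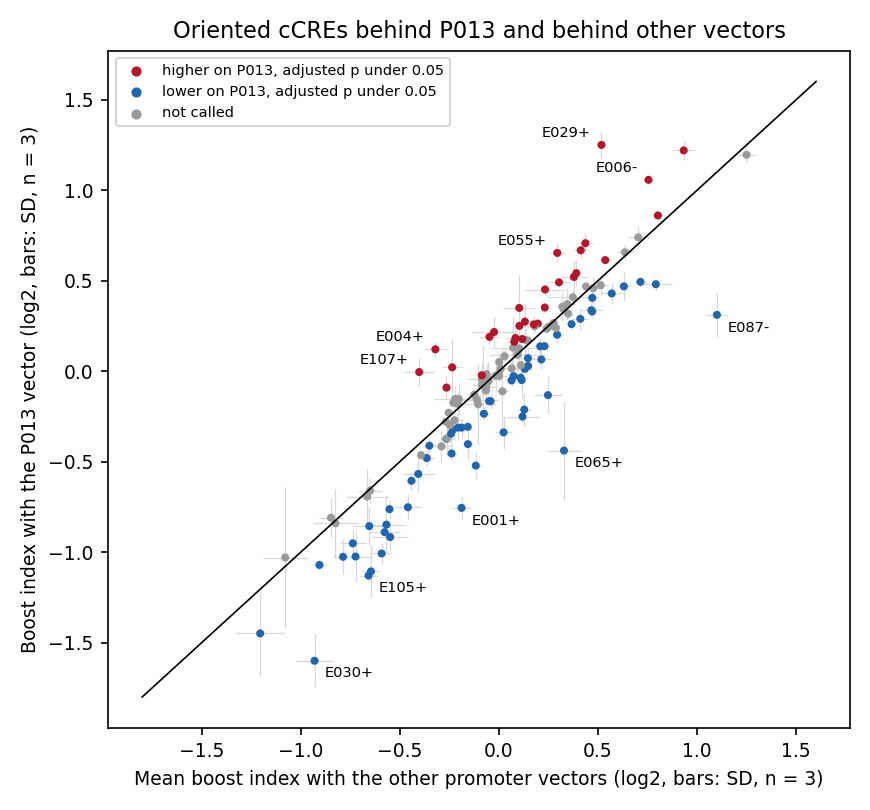
Boost index of 143 oriented cCREs on the P013 vector against their mean boost index on the other promoter vectors, both log2, with SD over 3 replicates as bars and the line of equal values. Most points follow the line (r = 0.92), E029+ lies furthest above it, by 0.73, and E087− furthest below, by 0.79.

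In the Upstream assay no deviation of a cCRE on P013 from the other promoters passed in limma. The count was 0 of 120, against 0% of 3648 over all promoters, with a smallest adjusted p of 0.126 on P013. Of the 120, 42 had an unadjusted p under 0.05 in limma, and the like share over all promoters is not given here. The Pearson r with the mean of the other promoters was 0.71. The highest estimate was that of E105+ on P013−, 1.26, and the lowest that of E097− on P013+, −1.63.

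The promoters whose cCRE profile was most like that of P013 were found by the Pearson r of boost indices over shared oriented cCREs, which share transfections. Downstream, P017 of Eps15l1 and Gm46043 (r = 0.89 over 144 cCREs) and P001 of Zfp882 (0.86 over 132) were most like it and P022 least (0.69 over 125). Upstream, P022− (0.88) and P017+ (0.87) were most like P013+ over 29 cCREs each, and P007+ least (0.38). P001− (0.80) and P001+ (0.77) were most like P013− over 91 each, and P012+ least (0.37 over 72).

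The 61 cCREs measured with P013 in both assays had a Pearson r of 0.63 between their mean boost indices, with the same sign in 45. Matched by single orientation, 91 pairs gave an r of 0.26. Where the Upstream constructs were limited to P013+, the orientation of the vector, the 29 pairs gave 0.67. E105+ differed in direction, raising P013− Upstream and standing at −0.88 log2 from the mean of the controls on the P013 vector Downstream. E105− read 0.202, 0.213 and 0.398 before P013− (−0.56 ± 0.33, adjusted p = 0.336) and was 0.59 log2 above that mean Downstream. Both Downstream values lay inside the range of the controls. E105 was measured Upstream only with P013−, and the vector holds P013+, so assay and P013 orientation cannot be told apart for it. E006, E007, E008 and E046 had positive mean boost indices in both assays and E030 negative ones.

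**Figure D5:**
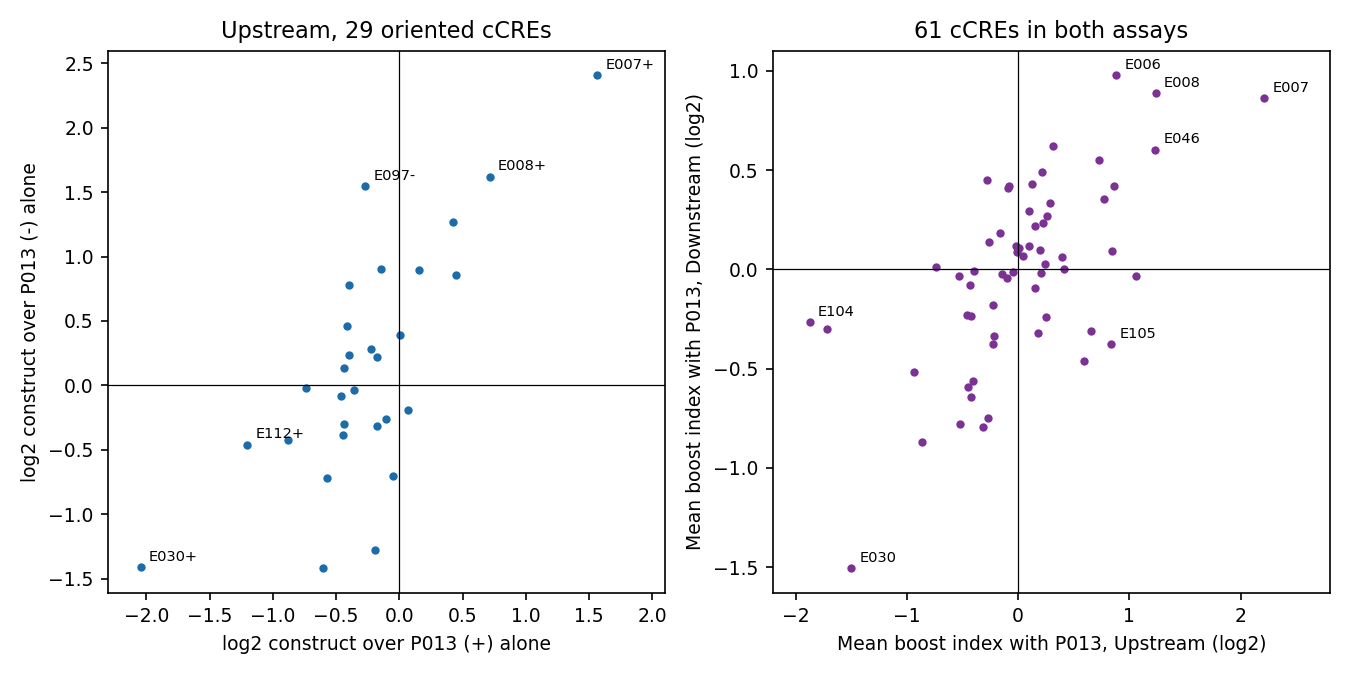
Left, log2 ratio to P013 alone of 29 oriented cCREs before P013− (vertical) and before P013+ (horizontal). Right, mean boost index (log2) of 61 cCREs with P013 in the Downstream (vertical) and Upstream (horizontal) assay, where E006, E007, E008 and E046 are positive in both and E030 is negative in both.

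The Spearman rho between distance from P013 in the genome and mean boost index was 0.15 over 61 cCREs Upstream and −0.10 over 79 Downstream, given as descriptions. The nearest cCRE on the Cib3 side, E041, lies 4.3 kb away and gave 2.33, 2.08 and 2.33 before P013+ in its + orientation (−0.57 ± 0.19 log2, adjusted p = 0.111). Downstream E041 was at −0.07 in + and 0.07 in −, within the spread of the controls. E040, 7.5 kb away inside Cib3, was at −0.41 ± 0.13 in + Downstream (adjusted p = 0.0172). On the other side E042, 38.0 kb away at the end of Ap1m1, was at 0.58 ± 0.14 in + and 0.70 ± 0.13 in − Downstream (adjusted p = 0.00512 and 0.00124). E044, 42.5 kb away, was at 0.50 ± 0.13 in + (adjusted p = 0.00961) and 0.17 ± 0.13 in −. None of the Upstream constructs of E040, E041, E042 or E044 with P013 passed. All these Downstream values lay inside the range of the control inserts.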

How the data were processed

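The deposited tables hold activities as ratios, which the authors made by dividing barcode reads in cDNA by those in plasmid DNA for each biological replicate, per the labels; further scaling, the counting of barcodes and filters on them are not given in the sources used here. Bowtie2 and mm10 are named in the submitters' processing notes, with no version. Columns were matched to the 6 cDNA samples of the Klf2 Upstream and the Downstream mixes by title. P013 and the lists were chosen with earlier results of these data known, and the motifs after the sequence had been read.

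Log2 activities were compared with limma 3.58.1 (lmFit and eBayes in R 4.3.3), 3 values against 3 baseline values, over every construct of a class, with Benjamini-Hochberg adjustment and a threshold of 0.05; the script was tested on simulated data. Baselines were the fragment alone Upstream and the mean of the vector's control inserts Downstream. Means are geometric. The Upstream fits dropped any construct that read 0 in some replicate, and an alternative kept them by adding a pseudocount of 0.01. Other alternatives paired the replicates, left out each replicate, dropped constructs under an activity of 0.1, or changed the baseline. A construct and its baseline with the same replicate number come from the same transfected cells, per the labels, so the numbers pair them; deviations of same-numbered values correlated between 0.845 and 0.910 Downstream and at 0.0201, 0.591 and 0.788 Upstream for replicates 1, 2 and 3.

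Named constructs were the 5 largest changes each way per comparison among those past the threshold with 1 direction in all 3 replicates, the 2 nearest cCREs on each side, the neighbours in activity order and the promoters of highest and lowest profile correlation. P018+ before P013+, constructs read against their parts alone, promoter inserts, P013 as an insert and E105− Upstream were chosen after their values were seen.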

Additional observations from a re-analysis of the deposited data

How the results depend on the processing

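With the replicates paired by number (replicate block), the calls rose from 19 to 34 for cCREs before P013, from 20 to 31 for promoters before P013, from 2 to 4 for P013 before a promoter, from 79 to 121 for cCREs with the P013 vector and from 20 to 51 for insert orientation, and the promoters alone that differed by orientation from 8 to 15. The pairing ended the call for P009+ and P019+ against P013+ alone and for P023− and E046+ before P013−. With a variance trend cCREs before P013 gave 36 calls. With the median construct as baseline they gave 12, and P013 before cCREs gave 3. Shares over the whole class under these alternatives, and under those that follow, are not given here. A change in these counts is therefore not read as particular to P013. Leaving out 1 replicate at a time gave 0 calls for cCREs before P013, 3 to 7 for P013 before cCREs, 0 to 24 for promoters before P013, 0 to 2 for P013 before a promoter, 0 to 6 for order, 25 to 38 for P013 alone against other promoters, 44 to 85 for cCREs with the P013 vector and 11 to 30 for insert orientation. Against the central 95% of the control inserts, 7 cCREs with the P013 vector stood out in place of 79. P013 alone kept its higher + orientation in each alternative, from 2.87 to 3.43 log2. Signs turned for 4 contrasts of P013 with other promoters. P013 minus P009 as vectors, which had passed, was −0.0741 with no insert, a measure added after seeing the data, and P018 was then −0.208. P013 minus P018 alone in + ran from −0.0227 (without replicate 2) to 0.234, and P013 minus the vectors of P016 and P018 from −0.162 and −0.0264 (without replicate 1) to 0.243 and 0.292, with P018 at −0.0840 by the median of its cCRE inserts. The correlation between the assays was 0.58 by Spearman's rho and 0.26 by single orientation. With the median construct taken anew from the replicates kept, the mean boost index was 0.0263 Upstream (−0.0100 to 0.0242 with a replicate left out) and −0.0381 Downstream (−0.0544 to −0.0312, and −0.0119 as a median). The number of barcodes per construct was not used, and 3 transfections limit each value.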
